A study of Mus musculus with 9 samples.

Results

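The genes described here, 10 in number, encode sensors, transcription factors, a chaperone and degradation proteins of the endoplasmic reticulum (ER), measured in RNA of embryonic mouse cortex before and after precipitation of the RNA-binding protein Pum2. They were picked by name, with earlier results of these data known, among them that of Syvn1 against input. Syvn1, Sel1l and Herpud1 act in ER-associated degradation, and Hspa5 is a chaperone. Atf6, Ern1 and Eif2ak3 are stress sensors, and Xbp1, Atf4 and Ddit3 are transcription factors. Each had exactly 1 row in the deposited table, so the rule of taking the row with the highest mean over the arrays left nothing to choose, and all 10 were among the 22180 genes compared. The tissue was embryonic cortex of the CD1 strain, wild type, at embryonic days 12 to 13, in 3 groups of 3 arrays labelled as biological replicates. Input was total RNA with no antibody, IgG was RNA brought down with normal rabbit IgG, and Pum2 was RNA brought down with a rabbit antibody to Pumilio2. No group carried a transgene or a deletion, and the sources used here do not give the number of embryos behind a replicate.

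The values were log2 signals from the Mouse Gene 2.0 ST array. Array medians over genes lay between 6.06 and 6.10, so a higher value in a precipitate means a larger share of that array's signal and not a larger amount of RNA recovered. In RNA of whole tissue, more cells of a type and more RNA per cell cannot be told apart. Of 12 markers of cortical precursors and neurons, 11 were measured and all 11 lay at or above the median gene, as did all 5 endothelial and all 6 meningeal or mesenchymal markers. The summed linear signal of the endothelial markers was 1510 to 1590 in input, 1450 to 1960 in IgG and 2370 to 2580 in Pum2, and that of the meningeal markers was 1150 to 1190, 1250 to 1510 and 1720 to 1910. The markers of the labelled tissue summed to 10700 to 10800 in input, 11100 to 11900 in IgG and 12600 to 13600 in Pum2, and 5 microglial markers to 396 to 454, 386 to 454 and 497 to 500. The 4 erythroid markers measured summed to 3260 to 4230 in input, 2450 to 4140 in IgG and 1920 to 2890 in Pum2, and ranges of the ganglionic eminence and choroid plexus markers overlapped between all groups. These sums moved with the groups, and their part in the differences below was not tested. A sum on the linear scale follows its brightest markers. From input to Pum2, erythroid Slc4a1 and Epor rose though their sum fell, and Hes5 and Neurod6 of the labelled tissue fell though theirs rose. The Pum2 transcript was higher with the Pum2 antibody than in input by 0.91 ± 0.09 (log2 difference and its standard error, 3 arrays a group; adjusted p = 3.41e-05 by limma) and than in IgG by 0.30 ± 0.09 (adjusted p = 0.0314). The Pum2 transcript was also higher in IgG than in input, by 0.61 ± 0.09 (adjusted p = 0.00148 by limma). The difference of Pum2 from IgG was no longer called with arrays centred on the brighter genes (0.20), with only the groups compared in the fit (0.30), or when IgG replicate 1 (0.25) or 3 (0.29) or Pum2 replicate 1 (0.25) or 2 (0.28) was left out.

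The ER folds secreted and membrane proteins, and when unfolded protein builds up there, sensors in its membrane start the unfolded protein response. Eif2ak3 encodes the kinase PERK, which slows translation and thereby favours production of the transcription factor ATF4 and, downstream, CHOP (Ddit3); Ern1 encodes IRE1, which splices the mRNA of Xbp1; and ATF6 is cut at the Golgi to release a transcription factor that raises chaperones such as BiP (Hspa5). Proteins that cannot be folded are drawn back to the cytosol and tagged for the proteasome, a route built around the ubiquitin ligase HRD1 (Syvn1) and its partner SEL1L. Pumilio proteins bind short sites in mRNA and repress translation, so a precipitate of Pum2 samples the transcripts it is bound to, directly or in a complex, on top of the background that IgG also brings down.

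Several stress-induced genes of this pathway carry a recognisable element in their promoters. It is shown here for the 3 of these genes in which it or its variant was found, Syvn1, Hspa5 and Herpud1. The ER stress element (ERSE) is a CCAAT box followed, after a spacer of 9 bases of any kind, by the site CCACG, which is read by ATF6. A compact variant, ERSE-II, has the box on the opposite strand, written ATTGG on this one, with a spacer of 1 base before the same site. The 250 bases before the RefSeq start of each gene are printed on the gene's strand (GRCm38.p6), with the element in capitals.
Syvn1, chr19:6046326-6046575, plus strand: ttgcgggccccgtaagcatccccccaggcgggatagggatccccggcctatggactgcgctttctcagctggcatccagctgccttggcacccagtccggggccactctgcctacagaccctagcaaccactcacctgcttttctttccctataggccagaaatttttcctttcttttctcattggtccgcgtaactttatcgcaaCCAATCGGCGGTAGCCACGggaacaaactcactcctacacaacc
Hspa5, chr2:34771840-34772089, plus strand: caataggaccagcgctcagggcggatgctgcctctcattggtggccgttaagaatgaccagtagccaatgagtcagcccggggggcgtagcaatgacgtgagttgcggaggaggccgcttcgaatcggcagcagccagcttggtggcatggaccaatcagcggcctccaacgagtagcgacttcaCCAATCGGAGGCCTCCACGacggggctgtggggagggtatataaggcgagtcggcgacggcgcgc
Herpud1, chr8:94386179-94386428, plus strand: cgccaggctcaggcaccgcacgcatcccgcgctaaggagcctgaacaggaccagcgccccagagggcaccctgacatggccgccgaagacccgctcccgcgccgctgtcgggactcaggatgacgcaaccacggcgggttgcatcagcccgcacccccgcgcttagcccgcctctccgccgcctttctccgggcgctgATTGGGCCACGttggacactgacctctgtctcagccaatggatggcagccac
The ERSE of Syvn1 began 44 bases before the start and that of Hspa5 65 bases before it, and the ERSE-II of Herpud1 began 52 bases before it.

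RefSeq promoter windows were at hand for 9 of the 10 genes, all but Atf6, each reaching from 250 bases before to 50 bases after the start. On either strand, ERSE occurred in 39 of all 32851 windows (0.119%) and ERSE-II in 12 (0.0365%). Of the 9 genes, Syvn1 and Hspa5 held ERSE and Herpud1 held ERSE-II. The others held neither, among them Sel1l, Eif2ak3 and Atf4, which were also higher in the Pum2 precipitate. The other motifs searched were the core TGACGTG, found in 2.01% of windows and, of these genes, in Hspa5, and the amino acid response motif (TGATG followed by AA after a spacer of 1 base), found in 3.97% of windows and, of these genes, in Herpud1 on the opposite strand. None of the 4 motifs shares a position with another in these genes. Of 27 measured genes with ERSE other than these 10, 8 were called higher and 1 lower in Pum2 over IgG (limma, adjusted p under 0.05), where 19.4% and 11.4% of all 22180 genes were, with a median log2 difference of 0.14 against 0.04 over all genes. In Pum2 over input 8 were higher and 2 lower, where 21.6% and 13.1% of all genes were, and the median was 0.15 against 0.07. For ERSE-II, of 8 measured genes, 4 were higher and 2 lower over IgG (median 0.19) and 3 higher and 2 lower over input (median -0.0076, below that of all genes). The lists of other pathway genes below share genes with these sets, so their counts are not separate. Shared genes include Calr, Creld2, Hsp90b1 and Pdia6 with ERSE, and Dnajb11 and Krtcap2 with ERSE-II. A match describes letters in a window and says nothing of which mRNA Pum2 holds.

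Against IgG, the control for nonspecific recovery, 7 of the 10 genes were called higher in the Pum2 precipitate and 2 lower (limma, adjusted p under 0.05), where 19.4% and 11.4% of all genes were called in those directions. Syvn1, Sel1l, Herpud1, Hspa5, Atf6, Eif2ak3 and Atf4 were the higher genes, Xbp1 and Ddit3 the lower ones, and Ern1 was not called. The median log2 difference of the 10 was 0.36, beside 0.04 over all genes. Without Syvn1, 6 of 9 were called higher and 2 lower, and the median was also 0.36. Against input, with Syvn1 set aside because its value there was known beforehand, 6 of the other 9 were called higher and 2 lower, where 21.6% and 13.1% of all genes were, and the median of the 9 was 0.47 beside 0.07 over all genes. The genes called in each direction were those called against IgG. Both comparisons use the same Pum2 arrays. All 10 genes lay above the median gene level of 6.08, the lowest mean being 7.45 (Ddit3). With only genes not below that level tested, 6674 were called against IgG and 7254 against input. With all genes tested, 6815 and 7688 were. The share called, both directions together, was therefore larger when the brighter genes were fitted and tested alone. That run had its own prior and its own adjustment of p-values. The share of brighter genes called in the fit of all genes was not counted. The shares of all genes, here and for the lists below, do not allow for brightness. Whether the 10 stand out from genes of like brightness was not tested. The genome-wide split of calls depended on scaling: 63% of calls in Pum2 over IgG were higher, and 46.9% once arrays were centred on the brighter genes, and against input these shares were 62.3% and 52.2%.

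**Figure D1:**
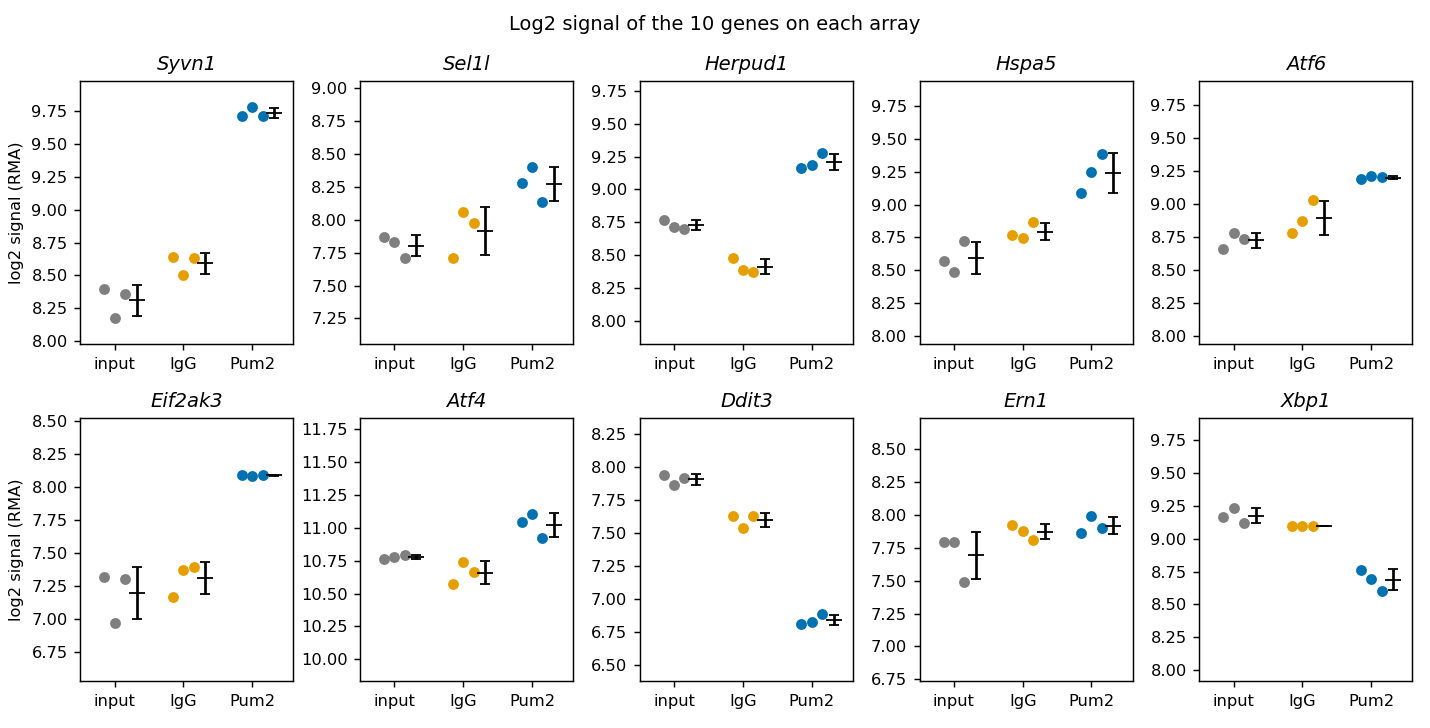
Log2 signal (vertical axis, 2 log2 units in every panel) of each of the 10 genes on the 3 input, 3 IgG and 3 Pum2 arrays; points are arrays, and the bar beside them is the mean with its SD. The Pum2 arrays lie above all others for Syvn1, Sel1l, Herpud1, Hspa5, Atf6, Eif2ak3 and Atf4 and below all others for Xbp1 and Ddit3. How many of all genes separate in this way was not counted.

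Among the degradation genes, Syvn1, the HRD1 ubiquitin ligase, showed the greatest separation. Its log2 signal was 8.40, 8.17 and 8.36 in input, 8.64, 8.50 and 8.63 in IgG, and 9.71, 9.78 and 9.71 in Pum2. The 3 groups did not overlap, and the Pum2 arrays stood more than a log2 unit above the IgG arrays in every pairing. Its difference from IgG was 1.14 ± 0.08, or 2.21-fold (adjusted p = 1.01e-05), position 64 from the top among 22180 genes. The difference from input, 1.42 ± 0.08 or 2.68-fold, was the 7th highest and is given without a test, since it was known when these genes were chosen. The comparison with IgG uses the same Pum2 arrays, so its p-value and position for Syvn1 are not independent of that choice. IgG itself was above input by 0.28 ± 0.08 (adjusted p = 0.0393). That smaller difference was no longer called with only the groups compared in the fit, with all features of the table, or without any 1 of 7 arrays, namely input replicates 2 and 3, IgG replicates 1 and 3 and every Pum2 replicate, where it lay between 0.21 and 0.31.

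Sel1l encodes the adaptor that stabilises HRD1 and presents it with substrates. Its log2 signal was 7.87, 7.83 and 7.71 in input, 7.71, 8.06 and 7.98 in IgG, and 8.28, 8.40 and 8.14 in Pum2. The Pum2 arrays lay above the rest, and the input and IgG arrays overlapped. Sel1l was higher in Pum2 than in IgG by 0.36 ± 0.11 (adjusted p = 0.0282) and than in input by 0.47 ± 0.11 (adjusted p = 0.00605), while IgG differed from input by 0.11, with a 95% interval from -0.13 to 0.35. The rise over IgG was not called with arrays centred on the brighter genes (0.26), with quantile normalization run again (0.27), with only the groups compared in the fit (0.36), or without IgG replicate 1 (0.26), Pum2 replicate 1 (0.35) or Pum2 replicate 2 (0.29).

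Herpud1, a stress-induced membrane protein that joins the HRD1 complex, behaved differently in the IgG background. Log2 signals were 8.77, 8.71 and 8.70 in input, 8.48, 8.39 and 8.37 in IgG, and 9.16, 9.18 and 9.28 in Pum2. None of the groups overlapped, and the order was IgG, input, Pum2 from low to high. The IgG precipitate was lower than input by 0.32 ± 0.07 (difference -0.32, adjusted p = 0.0114), and Pum2 was higher than IgG by 0.79 ± 0.07 (1.73-fold, adjusted p = 3.01e-05) and than input by 0.48 ± 0.07 (1.39-fold, adjusted p = 4.03e-04). Of the 10 genes, Herpud1 and Atf4 were the ones whose IgG mean lay below input while the Pum2 mean lay above it.

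Hspa5 encodes BiP, the main chaperone of the ER lumen, which also holds the sensors inactive. Log2 signals were 8.57, 8.49 and 8.73 in input, 8.77, 8.74 and 8.87 in IgG, and 9.09, 9.24 and 9.39 in Pum2. The Pum2 arrays were the highest, and IgG lay narrowly above input. Hspa5 rose by 0.45 ± 0.10 over IgG (1.36-fold, adjusted p = 0.00557) and by 0.65 ± 0.10 over input (1.56-fold, adjusted p = 4.52e-04). The difference of IgG from input was 0.20 ± 0.10 and was not called (adjusted p = 0.201).

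The sensors gave unequal values. Eif2ak3, which encodes PERK, had log2 signals of 7.31, 6.96 and 7.30 in input, 7.17, 7.37 and 7.39 in IgG, and 8.09, 8.08 and 8.09 in Pum2. Input and IgG overlapped, and the Pum2 arrays stood clear of both with an SD of 0.0044, against 0.20 in input and 0.12 in IgG. The rise was 0.78 ± 0.11 over IgG (1.72-fold, adjusted p = 3.42e-04) and 0.90 ± 0.11 over input (1.86-fold, adjusted p = 9.52e-05).

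Atf6, the sensor that is itself a transcription factor, had log2 signals of 8.66, 8.78 and 8.73 in input, 8.78, 8.87 and 9.03 in IgG, and 9.19, 9.21 and 9.21 in Pum2. The IgG arrays were spread between the input and Pum2 arrays. Atf6 rose over input by 0.48 ± 0.08 (adjusted p = 9.7e-04) and over IgG by 0.31 ± 0.08 (adjusted p = 0.015), and the latter was not called with arrays centred on the brighter genes (0.21), with quantile normalization run again (0.19) or without IgG replicate 1 (0.25).

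Ern1, which encodes IRE1, was the member not called in any comparison. Its log2 signal was 7.80, 7.80 and 7.49 in input, 7.93, 7.88 and 7.81 in IgG, and 7.86, 7.99 and 7.90 in Pum2. The precipitates overlapped, the input arrays lay below both, and input replicate 3 was the lowest of all. The difference from IgG was 0.048, with a 95% interval from -0.16 to 0.26 (adjusted p = 0.766), and its sign turned with quantile normalization run again (-0.027) and with centring on the brighter genes (-0.047). The difference from input was 0.22, with an interval from 0.012 to 0.44 (adjusted p = 0.0992), and it was called when the test was run on the brighter genes alone, those not below the median level (adjusted p = 0.0452).

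**Figure D2:**
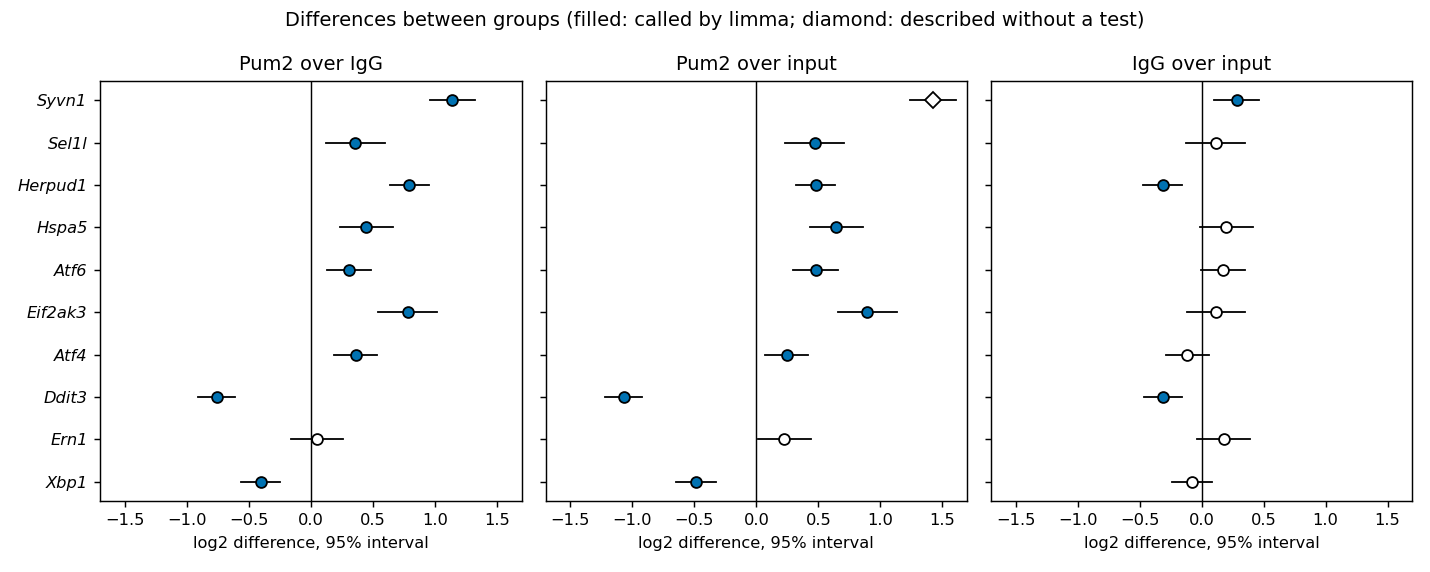
Log2 differences (horizontal axis) of the 10 genes in the 3 comparisons named above the panels, each with its 95% interval from the limma fit of 9 arrays; filled points were called at an adjusted p under 0.05, open points were not, and the open diamond is described without a test. Syvn1 lies at 1.14 and 1.42 in the Pum2 comparisons and Ddit3 at -0.76 and -1.07, while in IgG over input no gene lies beyond 0.32 in either direction.

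The transcription factors split. Atf4, which PERK signalling favours at translation, had log2 signals of 10.76, 10.77 and 10.79 in input, 10.57, 10.74 and 10.67 in IgG, and 11.04, 11.10 and 10.92 in Pum2. The Pum2 arrays were highest and the IgG arrays lowest. Atf4 was higher in Pum2 than in IgG by 0.36 ± 0.08 (adjusted p = 0.00531) and than in input by 0.24 ± 0.08 (adjusted p = 0.0324). The rise over input was not called with quantile normalization run again (0.19), with arrays centred on the brighter genes (0.17), or without input replicate 1 (0.24), 2 (0.24) or 3 (0.25) or Pum2 replicate 1 (0.24) or 2 (0.20).

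Ddit3, which encodes CHOP, the factor that turns unresolved stress towards cell death, went the opposite way. Log2 signals were 7.94, 7.87 and 7.92 in input, 7.63, 7.54 and 7.63 in IgG, and 6.81, 6.82 and 6.88 in Pum2. The groups did not overlap and stepped down from input to IgG to Pum2, with SDs of 0.04 to 0.05 in all 3. Pum2 stood at -0.76 ± 0.07 against IgG, or 1.69-fold lower (adjusted p = 3.12e-05), and at -1.07 ± 0.07 against input, or 2.10-fold lower (adjusted p = 2.16e-06). IgG was lower than input too, at -0.31 ± 0.07 (adjusted p = 0.0104).

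Xbp1, whose mRNA is the splicing substrate of IRE1, was also lower in the Pum2 precipitate. Its log2 signal was 9.17, 9.23 and 9.12 in input, 9.09 on each of the 3 IgG arrays, and 8.77, 8.69 and 8.61 in Pum2. The Pum2 arrays lay below all others, and the IgG arrays below input by a small margin. The 3 IgG values were identical in every deposited digit. That happened for 268 of 22180 genes in the IgG group, for 252 in input and for 283 in Pum2. The spread of Xbp1 in IgG was therefore not resolved by these values. The fit pools the spread of the 3 groups and took that of IgG as 0. The standard errors and p-values of Xbp1 may therefore be too small. Xbp1 stood at -0.41 ± 0.07 against IgG (1.33-fold lower, adjusted p = 0.00167) and at -0.49 ± 0.07 against input (1.40-fold lower, adjusted p = 4e-04), while IgG over input gave -0.079 ± 0.07 (adjusted p = 0.514). The array gives 1 value for the gene, so the spliced and unspliced mRNA were not told apart.

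Nonspecific IgG was also compared with input, where no Pum2 antibody was used. In that comparison, 1 of the 10, Syvn1, was called higher and 2, Herpud1 and Ddit3, lower, where 8.25% and 9.72% of all genes were called in those directions. Counts of 1 and 2 in 10 genes do not stand out from those shares. The call of Syvn1 was lost in the alternatives named above. The remaining 7 differences lay between -0.12 for Atf4 and 0.20 for Hspa5. Among the arrays of a group, the 10 genes had a median SD of 0.071 (input), 0.073 (IgG) and 0.063 (Pum2), below the 0.11, 0.12 and 0.10 of all genes. All genes include those dimmer than any of the 10, and the SDs of genes of like brightness were not compared.

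**Figure D3:**
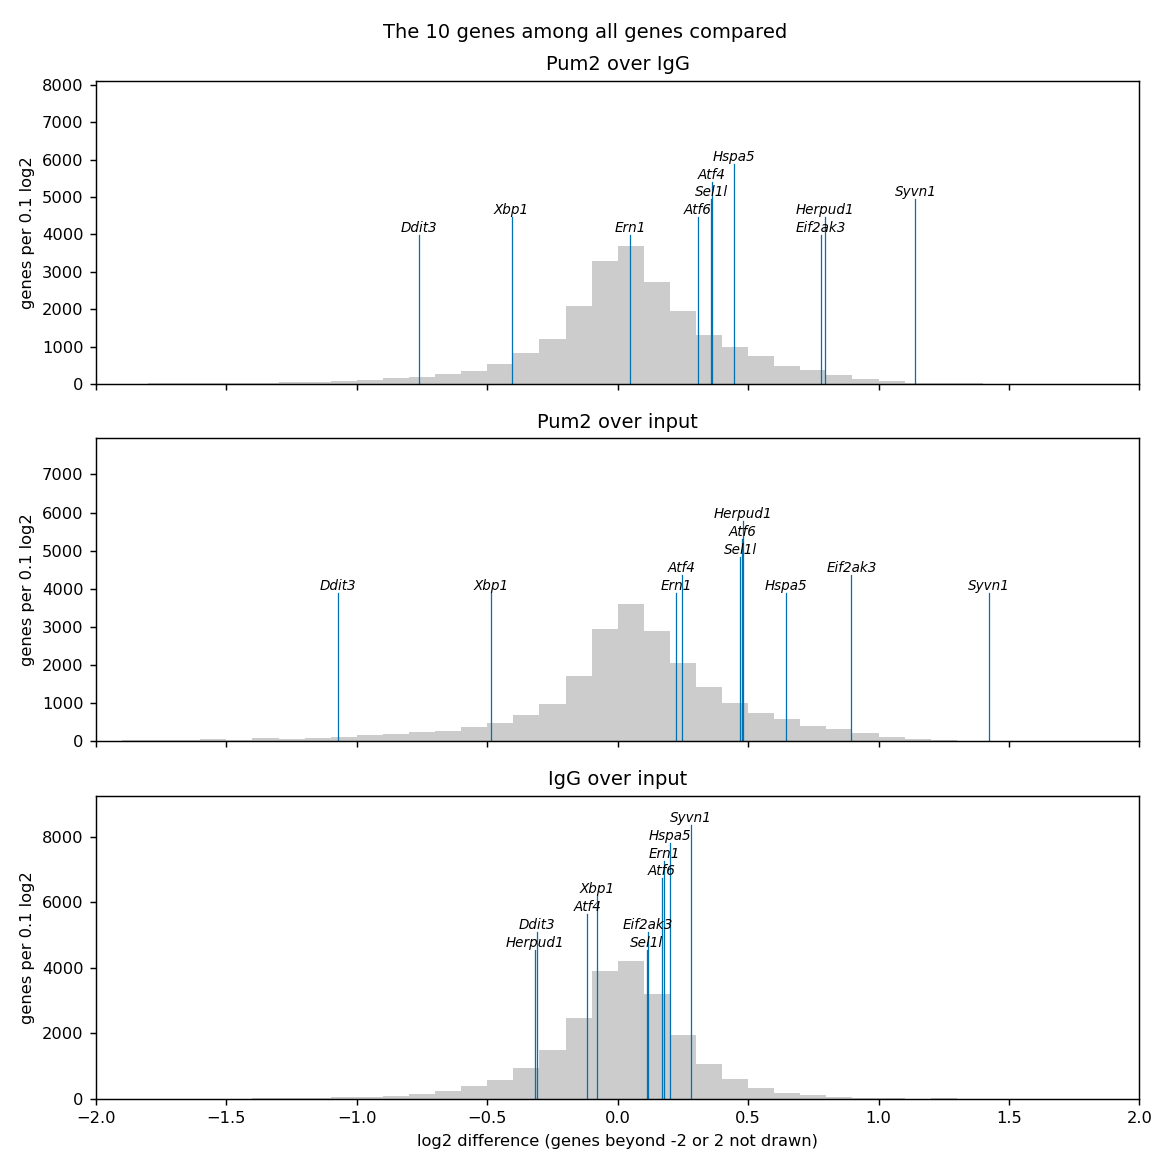
Grey bars count genes per 0.1 log2 of difference (horizontal axis) among the 22180 genes in each comparison, and blue lines mark the 10 genes; line height only separates the names. In both Pum2 comparisons Syvn1 lies at the far right and Ddit3 towards the left edge of the bulk, and Ern1 lies near the peak in Pum2 over IgG.

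The genes with the profile most like that of Syvn1 over the 9 arrays were Sik1, Sdc3, Gclc, Slitrk1 and Wrap73. Likeness was the Euclidean distance between log2 profiles after each gene's mean was taken off, among 10574 other genes at or above the median level, and the 5 lay at 0.30 to 0.33 where the median gene lay at 1.73. Sik1 differed between Pum2 and IgG by 0.95 and Wrap73 by 1.14, values that their choice by likeness fixes to be near that of Syvn1. For Ddit3, the member with the lowest difference from IgG, the nearest were Nsa2, Sclt1, Cep20, Ppp1r14b and Mapk1ip1, at distances of 0.12 to 0.17 where the median gene lay at 1.62. Nsa2 stood at -0.71 against IgG and -1.06 against input, values that its choice by likeness fixes to be near those of Ddit3.

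The other genes of the pathway were taken from 5 lists, 138 genes in all, of which 129 were measured by a row of their own. Stress sensors and their partners outside the 10 were mostly higher or not called: of 17 measured, 9 rose and 0 fell against IgG by limma (median 0.31; 19.4% of all genes rose and 11.4% fell; 0 also had a negative difference at an unadjusted p under 0.05), and 11 rose and 2 fell against input (median 0.37), where 21.6% and 13.1% of all genes did. Creb3l2, an ATF6-like factor of secretory cells, rose by 0.99 ± 0.11 over IgG (adjusted p = 1.08e-04) and by 0.85 ± 0.11 over input (adjusted p = 1.89e-04). Atf6b, the paralog of Atf6, rose by 0.67 ± 0.08 and 0.58 ± 0.08. Tmbim6, an ER membrane protein that restrains cell death, rose by 0.60 ± 0.07 over IgG, while IgG over input gave -0.33 ± 0.07 (adjusted p = 0.00975). Over input Tmbim6 rose by 0.28 ± 0.07 (adjusted p = 0.0108), a call lost with quantile normalization run again (adjusted p = 0.0516) and with arrays centred on the brighter genes (adjusted p = 0.058). Mbtps2, the protease that completes the cutting of ATF6, rose by 0.61 ± 0.08 over input and equally in IgG over input, by 0.56 ± 0.08 (adjusted p = 0.00136). Bak1, a pore-forming death protein, and Creb3l4, another ATF6-like factor, were lower in IgG than in input, at -0.46 ± 0.07 and -0.44 ± 0.08. Of that list 1 gene was higher and 3 lower in IgG over input (5.88% and 17.6%, beside 8.25% and 9.72% of all genes).

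Among integrated stress response genes, those that act with or after the eIF2 kinases, 14 of 26 rose (53.8%, beside 19.4% of all genes) and 2 fell (7.69%, beside 11.4%) against IgG, with a median of 0.39. Against input 14 rose and 2 fell as well, where 21.6% and 13.1% of all genes did, with a median of 0.43. In IgG over input 2 rose and 4 fell (7.69% and 15.4%, beside 8.25% and 9.72% of all genes). Sesn2, a stress-induced brake on mTOR, lay higher in Pum2 than in IgG by 1.40 ± 0.08 and than in input by 0.96 ± 0.08, and lower in IgG than in input (-0.44 ± 0.08, adjusted p = 0.00428). Slc3a2, the heavy chain of amino acid transporters, had the same order, with 0.85 ± 0.07, 0.52 ± 0.07 and -0.33 ± 0.07, and so had Bbc3, a death-promoting BH3 gene, with 1.01 ± 0.07, 0.64 ± 0.07 and -0.37 ± 0.07. Bcl2l11, which encodes the BH3 protein BIM, rose by 0.68 ± 0.10 over IgG and by 1.20 ± 0.10 over input, and by 0.52 ± 0.10 in IgG over input. Eif2ak1, the haem-regulated eIF2 kinase, rose by 0.61 ± 0.09 over IgG (adjusted p = 4.96e-04), but IgG stood below input at -0.44 ± 0.09 (adjusted p = 0.00625), and Pum2 over input gave 0.17 ± 0.09 and was not called (adjusted p = 0.185). Ddit3 thus stood lower in a precipitate in which 14 other genes of its response were higher.

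The chaperones and folding enzymes were mixed, with 11 of 23 higher (47.8%, beside 19.4% of all genes) and 4 lower (17.4%, beside 11.4%) against IgG (median 0.20). Against input 8 were higher and 8 lower (34.8% each, beside 21.6% and 13.1%; median 0.077), and in IgG over input 1 was higher and 7 lower (4.35% and 30.4%, beside 8.25% and 9.72%; median -0.09). Dnajb11, a co-chaperone of BiP, was lowest in IgG, with -0.51 ± 0.08 in IgG over input (adjusted p = 0.00155), 0.31 ± 0.08 in Pum2 over IgG (adjusted p = 0.0117) and -0.20 ± 0.08 in Pum2 over input (adjusted p = 0.0731). Its rise over IgG was not called with quantile normalization run again or with arrays centred on the brighter genes (0.22 in either). Pdia6, a disulfide isomerase, rose by 0.65 ± 0.08 over IgG and by 0.60 ± 0.08 over input, as Hspa5 did. Dnajb9 and Dnajc1, co-chaperones of BiP, fell, at -0.65 ± 0.10 and -0.62 ± 0.09 against IgG (adjusted p = 6.09e-04 and 4.04e-04). Uggt1, which checks the folding of glycoproteins, rose over input by 0.84 ± 0.09, and IgG over input gave 0.50 ± 0.09. Erp44 and Ppib, a thiol-retention factor and a prolyl isomerase, stood at -0.82 ± 0.07 and -0.78 ± 0.08 against input. Ppib was just as low in IgG over input (-0.78 ± 0.08), and Erp44 was lower there too, at -0.57 ± 0.07 (adjusted p = 5.89e-04 by limma). Against IgG, Erp44 stood at -0.26, a call lost without IgG replicate 2 or 3 or Pum2 replicate 2.

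The rest of the degradation machinery went both ways. Of 34 genes, 10 rose and 9 fell against IgG (29.4% and 26.5%, beside 19.4% and 11.4% of all genes; median 0.035). Against input 8 rose and 9 fell (23.5% and 26.5%, beside 21.6% and 13.1%, median 0.064). In IgG over input 3 rose and 6 fell (8.82% and 17.6%, beside 8.25% and 9.72% of all genes). Get4, of the complex that guides tail-anchored proteins, was lower in IgG than in input, at -0.44 ± 0.10. Os9, a lectin that hands glycoproteins to the HRD1 complex, rose by 0.92 ± 0.08 over IgG and 0.66 ± 0.08 over input. Rnf139, another ubiquitin ligase of the ER membrane, rose by 0.80 ± 0.07 and 1.14 ± 0.07. Ube2j1, the ubiquitin-conjugating enzyme that works with HRD1, fell, at -0.77 ± 0.07 against IgG (adjusted p = 3.15e-05) and -0.99 ± 0.07 against input. Aup1, which recruits a conjugating enzyme to the same complex, stood at -0.70 ± 0.07 and -1.12 ± 0.07 (adjusted p = 6.17e-05 and 2.16e-06). In IgG over input Aup1 was lower as well, at -0.42 ± 0.07 (adjusted p = 0.0027 by limma). Transcripts of proteins that work at HRD1 were therefore found at both ends of the range.

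Genes for protein entry into the ER and glycosylation, which are not part of the stress pathways, went both ways against IgG and were more often lower than higher in the comparisons with input. Of 29, 7 rose and 8 fell against IgG (24.1% and 27.6%, beside 19.4% and 11.4% of all genes; median 0.019). Against input 4 rose and 11 fell (13.8% and 37.9%, beside 21.6% and 13.1%; median -0.077), and in IgG over input 1 rose and 10 fell (3.45% and 34.5%, beside 8.25% and 9.72%; median -0.24). Sec61g, a small subunit of the translocon, fell in each comparison, with -1.32 ± 0.09, -2.11 ± 0.09 and -0.79 ± 0.09. Srprb, which encodes the membrane subunit of the receptor for the signal recognition particle, had the highest difference of the list from IgG, 1.34 ± 0.14 (adjusted p = 8.71e-05), but it was low in IgG itself, at -1.02 ± 0.14 against input (adjusted p = 0.00112), and Pum2 over input gave 0.32 ± 0.14 and was not called (adjusted p = 0.118). Ssr4, a subunit of the translocon-associated complex, stood at -0.42 ± 0.08 against IgG, -1.26 ± 0.08 against input and -0.84 ± 0.08 in IgG over input. Ost4 and Ostc, small subunits of the oligosaccharyltransferase, stood at -1.14 ± 0.09 and -0.91 ± 0.09 against IgG, and Tram1, which helps chains into the membrane, at -1.14 ± 0.08. Over all 5 lists 8 of 129 genes were higher and 30 lower in IgG over input (6.2% and 23.3%, beside 8.25% and 9.72% of all genes). No difference between lists was tested.

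**Figure D4:**
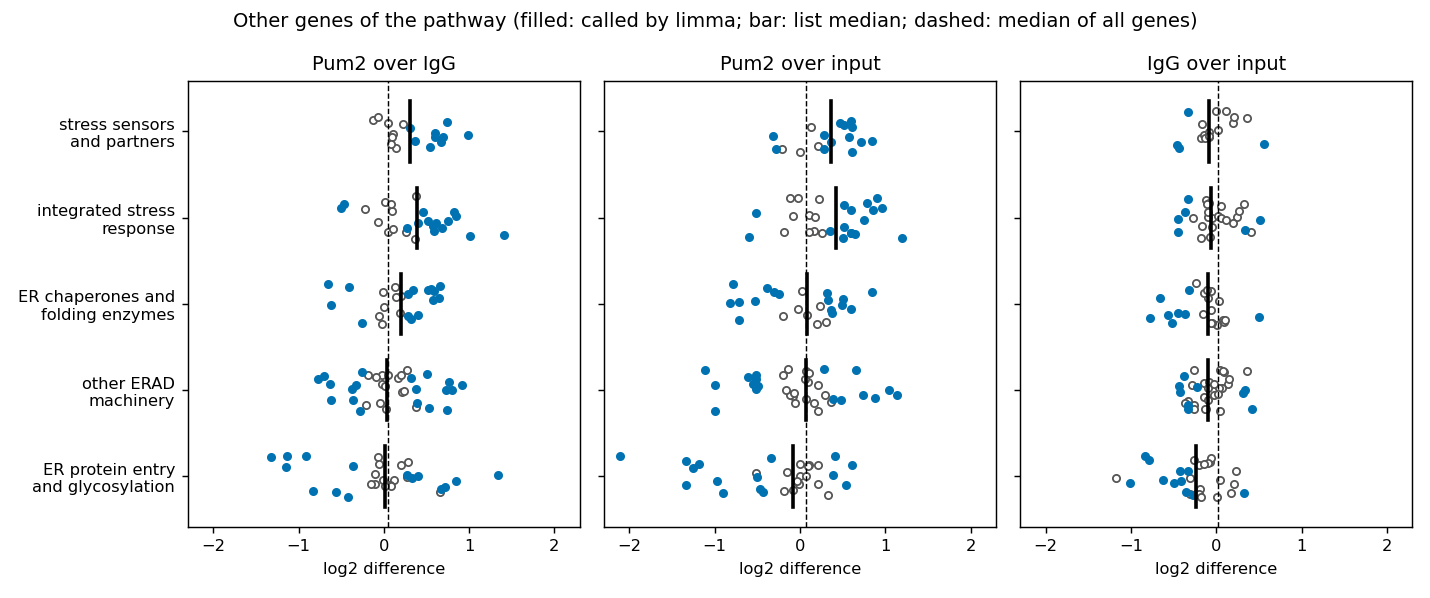
Log2 differences (horizontal axis) of the 129 other pathway genes by list, in the 3 comparisons named above the panels; points are genes, filled where limma called them, the black bar is the list median and the dashed line the median of all genes. The sensor and stress response lists have medians of 0.31 and 0.39 over IgG, and the ER entry list spreads from -1.32 to 1.34.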

How the data were processed

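RNA of 9 samples was hybridised to the Mouse Gene 2.0 ST array after amplification with a kit for small amounts, per the labels' protocols. The deposited log2 values were made by the authors with RMA in Affymetrix Expression Console, per the submitters' processing notes; their versions and the build: not given in the sources used here, and background correction could not be varied. Of 41345 features, 23521 carried 1 symbol, 1814 several and 16010 none in the table given with the series, and each of 22180 genes was read from its row with the highest mean. The test was that of limma (version 3.58.1, R version 4.3.3), with all 9 arrays in 1 model of 3 groups and 6 residual degrees of freedom, and p-values were adjusted over all genes by the method of Benjamini and Hochberg. An exact two-sided permutation test of 3 against 3 arrays cannot go below 0.1. The labels call the arrays of a group biological replicates, and p-values measure the spread among them, which limits precision with so few.

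The members and lists were chosen with earlier results of these data known. Named genes are the 10 members, up to 3 genes of a list in each comparison (called, no overlap of arrays, largest moderated t), and the 5 genes most like Syvn1 and like the member with the lowest difference from IgG. The code was tested on simulated data. Listed genes without a row of their own, 9 in the pathway lists, were not analysed here. Promoter sequences are RefSeq's (GRCm38.p6).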

Additional observations from a re-analysis of the deposited data

How the results depend on the processing

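The fit was repeated with the replicate number as a block, without the group not compared, on the brighter genes alone, with a prior that follows intensity and resists outliers, after quantile normalization run again, after centring on the brighter genes, on all features, and without each array in turn. No member had another row, so reading a member from another row was not run. Of 464 differences of single members across alternatives, 436 kept their direction and side of the threshold, 25 lost the call, 1 gained it and 2 reversed, both Ern1 in Pum2 over IgG (-0.027 with quantile normalization run again, -0.047 with centring on the brighter genes). Among the other named genes, 1123 such values were kept and 26 lost the call, Ube2j1 in IgG over input the most often. Counts of members called in both Pum2 comparisons stayed within 1.5 times. With all features tested, 11358 features were called in Pum2 over IgG and 11920 in Pum2 over input. In IgG over input, 0 members were called higher by limma with only the groups compared or with all features (1 at an unadjusted p under 0.05 in either), and 0 to 1 without single arrays; pathway genes called higher there numbered 5 to 8 when single arrays were left out, against 8. Fewer arrays or more features tested accompany these losses, and the cause was not tested. Same-numbered arrays of different groups had deviations that correlated at r between 0.0015 and 0.14, all above 0, and differently numbered arrays at -0.13 to 0.041. The rule for pairing, every same-numbered r over 0.1, was not met, and the labels name no shared litter or batch, so the values reported come from the fit without a block. With the replicate block 6865, 7765 and 4026 genes were called, against 6815, 7688 and 3984, and no call of a member changed. Signal over background is not given by these values.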
